A study of Mus musculus with 9 samples.

Results

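The nuclear genes of respiratory complex I and of its Ndufaf assembly factors were described in mouse muscle. Members were the rows of the deposited gene table whose symbol begins with Nduf followed by a, b, c, s, v or af and a number, and 50 of the 19335 rows matched. A row was set apart when an annotated gene of the file overlapped its span on the opposite strand by at least 1 base. By that criterion 19 members had an opposite-strand gene and 31 had none. Of the 50 rows, 38 encode subunits or Ndufa4 and its paralogue Ndufa4l2, 8 encode Ndufaf assembly factors, and 4 are pseudogene rows (Ndufa12-ps, Ndufb4c, Ndufs5-ps and Ndufs6b). The 7 subunits encoded by mitochondrial DNA have no row here and were not analysed, and Ndufab1 lies outside the symbol pattern.

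All mice were wild-type C57BL/6J. They were assigned to groups at 9 weeks of age, acclimatised for 2 weeks, kept on their diet for 8 weeks and fasted for 6 h before muscle was taken. The carnitine group received a high-fat diet (60% of energy from fat) with L-carnitine in the drinking water at 100 mg/kg/day. The high-fat diet group received the same feed without carnitine, and the control group received chow with 10% of energy from fat. L-carnitine is the carrier on which long-chain fatty acids enter mitochondria for oxidation. Each group had 3 RNA-seq libraries. The labels name neither the muscle nor whether each library came from a separate animal, and the p-values therefore describe variation among the sequenced libraries, which may be technical.

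Complex I takes electrons from NADH, passes them through a flavin and a chain of iron-sulfur clusters to ubiquinone, and pumps protons across the inner mitochondrial membrane. Its N module binds and oxidises NADH, its Q module reduces ubiquinone, and its membrane arm, built from a proximal and a distal part, moves the protons. In muscle the complex feeds most of the electrons of sugar and fat oxidation into the respiratory chain.

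Where a member and its opposite feature share exons, the same stretch of genome belongs to both. The coding stretches of 4 members that lie under exons of an opposite feature are printed because the counts discussed next fall on these pairs. They are read on the strand of the complex I gene from GENCODE M21 transcripts (GRCm38). Capitals mark the bases that the opposite feature's exon also covers, and lower case marks neighbouring coding bases.
Ndufb2 under Gm16272 (plus strand, chr6:39592629-39592712, exon 1): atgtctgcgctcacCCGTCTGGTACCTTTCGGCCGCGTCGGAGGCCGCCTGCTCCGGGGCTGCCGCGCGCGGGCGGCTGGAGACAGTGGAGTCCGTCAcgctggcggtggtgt
Ndufs1 under Ino80dos (minus strand, chr1:63157132-63157277, exon 11): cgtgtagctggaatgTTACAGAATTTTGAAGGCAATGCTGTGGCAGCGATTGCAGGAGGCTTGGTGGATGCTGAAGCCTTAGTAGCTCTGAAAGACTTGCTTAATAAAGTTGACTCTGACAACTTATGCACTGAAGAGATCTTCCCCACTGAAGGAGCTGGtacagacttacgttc
Ndufa9 under 1700018A23Rik (minus strand, chr6:126824936-126825002, exon 10): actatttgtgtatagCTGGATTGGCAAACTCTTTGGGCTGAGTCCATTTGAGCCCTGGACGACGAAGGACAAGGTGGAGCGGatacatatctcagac
Ndufa11 under Vmac (plus strand, chr17:56717873-56717942, exon 1): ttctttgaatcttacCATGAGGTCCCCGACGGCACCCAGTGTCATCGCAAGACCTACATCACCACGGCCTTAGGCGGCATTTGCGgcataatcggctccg
The shared stretches hold 84 coding bases in Ndufb2, 146 in the printed exon of Ndufs1, 67 in Ndufa9 and 70 in Ndufa11.

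Some features opposite a complex I gene held far more counts than the complex I gene itself. There were 23 opposite features in 23 pairs with 19 members. In 9 pairs the opposite feature had the higher total over all 9 libraries. In the other pairs the member had the higher total, as in Ndufa13 with 1400 counts against 72 on Tssk6. The share over all opposite-strand pairs of the file is not given here. The 8 opposite features described next are those with the highest mean CPM. The lncRNA Gm16272 held 22012 counts, while Ndufb2, a distal membrane arm subunit on the other strand, held 155, or 0.704% as many. Mrpl47, a protein of the large mitochondrial ribosomal subunit, held 22678 counts against 602 on the distal arm subunit Ndufb5. The lncRNA Ino80dos held 20992 counts against 738 on Ndufs1, the largest core subunit of the N module. A further lncRNA, 1700018A23Rik, held 19170 counts against 800 on the Q module subunit Ndufa9. Vmac held 19137 counts against 361 on the proximal arm subunit Ndufa11, and Smim27 held 12091 counts against 474 on the distal arm subunit Ndufb6. Kbtbd4, opposite the Q module core subunit Ndufs3 (687 counts), held 4128 counts, and Rbm10, a splicing regulator opposite Ndufb11 (990 counts), held 2938.

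The pairs with very high opposite counts were also those that share coding sequence. In 6 pairs the opposite feature covered between 66 and 248 coding bases of the member in M21, and in these 6 the opposite totals ran between 12091 and 22678 counts. In the other 17 pairs, of which 13 share some exon sequence, opposite totals ran between 1 and 4128 counts with a median of 72. Among those 17, coding bases of the member were covered in 1 pair. The 60-base division between the 6 and the 17 pairs was drawn after the values were seen, so this is a description without a test. By the deposited GRCm39 spans, Gm16272 lies at chr6:39561026-39569718 on the minus strand and Ndufb2 at chr6:39569508-39580316 on the plus strand. Ino80dos lies at chr1:63152237-63197449 on the plus strand and Ndufs1 at chr1:63182755-63215992 on the minus strand. Among the 6, Mrpl47 also shares 452 exon bases with Actl6a, Ino80dos shares 431 with Ino80d and Smim27 shares 113 with Topors. In Ndufs1 the shared exons lie towards the 3′ end of the gene, and in Ndufb2, Ndufb5 and Ndufa11 they lie at its start.

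**Figure D1:**
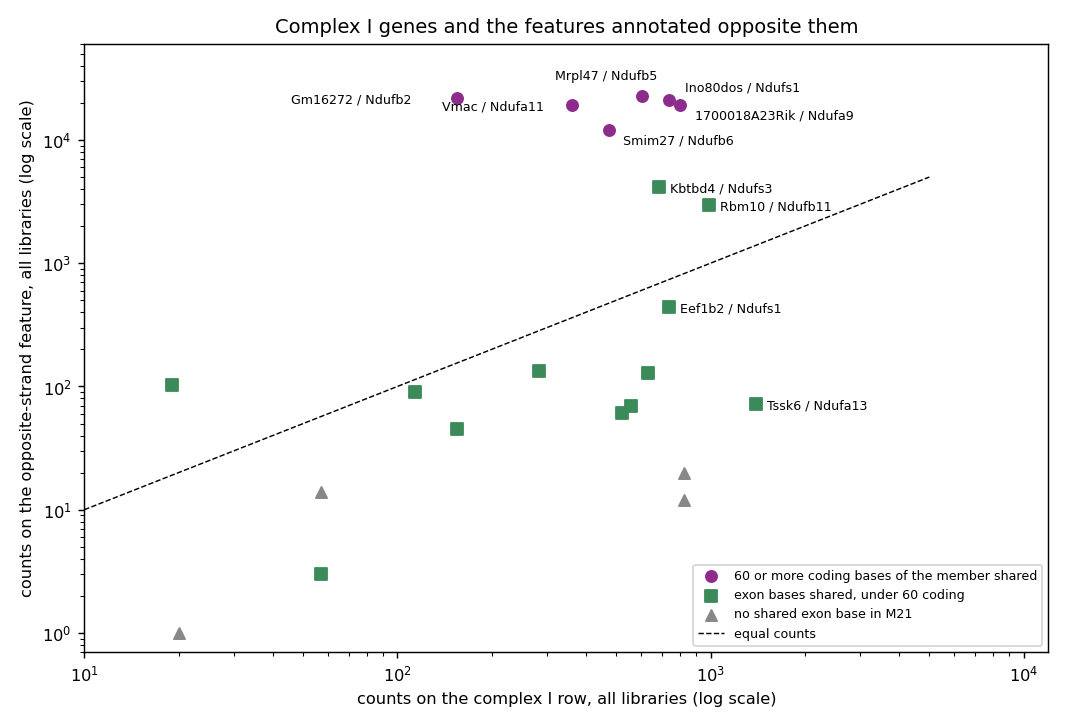
Counts summed over all 9 libraries on each complex I row (horizontal, log scale) and on the feature annotated opposite it (vertical, log scale), with 1 point for each of 22 pairs and a dashed line at equal counts. The 6 pairs that share at least 60 coding bases sit together at the top, between 12091 and 22678 counts on the opposite feature, while their complex I rows hold between 155 and 800.

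The libraries were made with a strand-marking kit, per the labels, but how strand was set when reads were counted is not recorded in the labels or notes. Whether the counts on a row with an opposite-strand gene came from the gene named or from its partner was not tested. If the setting was the reverse of the kit, the counts of every row, those of members with no opposite-strand gene included, would be reads of the other strand, and this was not tested either. Across the whole table, rows with an opposite-strand gene took 84.5% to 90.7% of all counts in each library, and rows with none took 9.31% to 15.5%. Library totals ran between 2315985 and 3773649 counts, so 3 counts, the limit that a count of 0 allows, corresponded to 0.795 to 1.30 CPM (counts scaled to the library total). Of the markers examined, 13 of 13 fast muscle fibre genes had counts, with summed levels of 41418 to 53760 CPM in carnitine libraries, 66219 to 83373 CPM in high-fat diet libraries and 54556 to 87280 CPM in control libraries. Of the slow fibre genes, 9 of 9 had counts, with sums of 31.9 to 73.3, 28.6 to 79.0 and 33.3 to 97.6 CPM in carnitine, high-fat diet and control libraries. In bulk muscle, fewer cells of a type and less RNA per cell cannot be told apart.

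Levels per kilobase are given as the deposited FPKM (corrected for gene length and library depth), averaged over all 9 libraries with the SD. Among members with an opposite-strand gene the highest levels included the N module subunit Ndufa2 (44.2 ± 13.1), the proximal arm subunit Ndufa13 (44.0 ± 14.3), the distal arm subunits Ndufb11 (43.1 ± 11.7) and Ndufb6 (29.0 ± 13.1), and Ndufs6 (23.3 ± 9.50), which binds zinc in the N module. Among members with none the highest were the distal arm subunit Ndufb10 (45.5 ± 20.2), Ndufa4 (39.1 ± 34.0), the proximal arm subunits Ndufa8 (38.7 ± 17.4) and Ndufa1 (30.0 ± 17.1), the Q module subunit Ndufa5 (28.5 ± 15.8) and the proximal arm subunit Ndufs5 (25.7 ± 10.3). These 11 genes overlap in their spread, so their order is not resolved. The median level was 13.1 FPKM over the 19 members with an opposite-strand gene and 13.8 FPKM over the 31 with none. Over all features the medians were 1.12 and 0.266 FPKM in these classes.

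By role, the 10 N module genes had a median of 16.8 FPKM, the 6 Q module genes 20.99 FPKM, the 9 proximal arm genes 22.0 FPKM and the 11 distal arm genes 16.3 FPKM. Assembly factors were far lower, between 0.612 FPKM in Ndufaf7, a mitochondrial methyltransferase, and 2.53 FPKM in Ndufaf3, which helps build the Q module. Among subunits, Ndufb2 at 1.15 FPKM lay within the assembly factors' range, and its opposite feature Gm16272 was at 2314 FPKM. Ndufs1 was the lowest core subunit at 3.53 FPKM, with Ino80dos opposite it at 298 FPKM. These ranks depend on the gene length by which FPKM divides, 8086 bases for Ndufs1 and 5628 for Ndufb2. The exons of Gm16272 span 388 bases in M21. By counts, Ndufs1 (738) stood above Ndufs3 (687) and Ndufs8 (562), and Ndufb2 (155) above Ndufaf3 (114). Comparison of the diets was possible for 40 members that passed the filter on low counts, 16 with and 24 without an opposite-strand gene. The 10 that did not pass were Ndufa4l2, Ndufaf1, Ndufaf2, Ndufaf5, Ndufaf6, Ndufaf7, Ndufaf8, Ndufb4c, Ndufs5-ps and Ndufs6b, with 4 to 76 counts in all.

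Sequence at the start sites was also examined, since several of these genes start head to head with their opposite feature. RefSeq promoters (GRCm38.p6, 250 bases before to 50 after the start) matched 40 members by symbol. The palindrome made of GCGCA followed directly by its reverse complement is a word bound by the respiratory regulator NRF1. It was found on either strand for 3 of 40 members (7.5%), Ndufa11, Ndufaf4 and Ndufaf5. Among all 27025 genes with a promoter the share was 1.07%. On either strand, ATGGCGGC, bound by YY1, was found for 7 of 40 (17.5%) and for 2.61% of all these genes. CCGGAAG, bound by GABPA, was found for 6 of 40 (15%) and for 9.93% of all these genes. The promoters of Ndufa11 and Ndufb5 are printed because Vmac and Mrpl47 start on the other strand beside them, with the matched word in capitals.
Ndufa11 (plus strand, chr17:56717512-56717811): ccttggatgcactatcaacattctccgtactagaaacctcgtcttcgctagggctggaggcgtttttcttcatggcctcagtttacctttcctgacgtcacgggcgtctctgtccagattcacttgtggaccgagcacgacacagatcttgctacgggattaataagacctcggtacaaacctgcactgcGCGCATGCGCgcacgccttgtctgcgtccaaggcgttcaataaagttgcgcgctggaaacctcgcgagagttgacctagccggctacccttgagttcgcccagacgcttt
Ndufb5 (plus strand, chr3:32736813-32737112): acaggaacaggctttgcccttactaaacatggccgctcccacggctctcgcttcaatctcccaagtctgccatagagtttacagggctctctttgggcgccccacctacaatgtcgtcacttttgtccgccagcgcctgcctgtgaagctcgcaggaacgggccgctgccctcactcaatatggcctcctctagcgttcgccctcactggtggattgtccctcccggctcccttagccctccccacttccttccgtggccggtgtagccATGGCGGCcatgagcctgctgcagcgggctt
The NRF1 word in Ndufa11 begins 60 bases before the start, and the YY1 word in Ndufb5 begins at base 19 after it. The YY1 word contains ATG, and whether it is part of the coding sequence was not examined. These matches describe letters, and no binding was measured.

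Before the diets are compared, the carnitine group itself has to be described, because library 1 differed from libraries 2 and 3. Rows with no opposite-strand gene took 14.1%, 9.31% and 9.98% of counts in carnitine libraries 1, 2 and 3. Their share was 12.8%, 14.3% and 15.3% in high-fat diet libraries and 15.5%, 10.3% and 14.1% in control libraries. By this share libraries 2 and 3, not library 1, lay below most others. Which carnitine libraries are the unusual ones was not tested. Summed over the 24 tested members with no opposite-strand gene, TMM-normalised CPM were 1076, 464 and 425 in carnitine libraries 1, 2 and 3, against 627, 913 and 769 in high-fat diet libraries and 671, 604 and 679 in control libraries. Carnitine library 1 was the highest of the 9 and libraries 2 and 3 were the lowest. The 16 tested members with an opposite-strand gene showed the same arrangement, with sums of 639, 300 and 332 in carnitine libraries, against 401, 620 and 551 in high-fat diet libraries and 451, 454 and 465 in control libraries. In 35 of 40 members carnitine library 1 exceeded the mean of libraries 2 and 3, by a median ratio of 1.99. The ratio exceeded 2 in 50% of members, and in 29.9% of all features with no opposite gene and 11.7% of those with one.

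Ndufa4, a mitochondrial protein first assigned to complex I and now counted with complex IV, shows this in its values. It had 166, 43.7 and 26.4 CPM in carnitine libraries, against 34.4, 63.6 and 44.6 CPM in high-fat diet libraries and 31.4, 25.0 and 41.4 CPM in control libraries. Carnitine library 1 thus held 4.74 times the mean of libraries 2 and 3. The ratio was 5.65 in the pseudogene row Ndufa12-ps, 4.44 in the N module subunit Ndufa12, 4.41 in Ndufa9, 4.34 in the distal arm subunit Ndufb3 and 4.28 in Ndufa5. The 8 highest opposite features did not share this, with a median ratio of 0.998 and none above 2. Ino80dos was lower in carnitine library 1, at 636 CPM, than in libraries 2 and 3, at 1002 and 1111 CPM. Markers of several other cell types were also higher in library 1. All 5 endothelial markers tested had a ratio of at least 4.38, the 6 of 6 markers with counts summed to 35.4 to 203 CPM in carnitine libraries, 59.5 to 109 CPM in high-fat diet libraries and 43.6 to 69.0 CPM in control libraries, and none was at 0 in every library. The 5 cardiac markers with a row summed to 8.85 to 37.4, 5.19 to 22.5 and 19.0 to 21.2 CPM in carnitine, high-fat diet and control libraries, while Tnni3 and Ryr2 have no row here. Among tested markers with no opposite gene, library 1 held 4.64 to 9.92 times the mean of libraries 2 and 3 in 2 cardiac, 2.03 to 4.79 times in 2 smooth muscle and 1.86 to 5.84 times in 2 nerve markers, and 2.77 times in 1 adipocyte marker. Among tested markers with an opposite gene, it held 0.887 and 2.65 times in 2 cardiac, 1.04 times in 1 smooth muscle and 5.31 times in 1 nerve marker. Library 1 held 0.845 and 1.40 times the mean of libraries 2 and 3 in 2 fibroblast markers. It held 0.979 times in the macrophage and 0.755 times in the erythroid marker tested. In fast fibre genes the median ratio was 1.66 in 6 with an opposite gene and 1.21 in 7 with none, and 0 were above 2. In slow fibre genes it was 1.61 in 5 with an opposite gene and 1.63 in 2 with none, with highest values of 3.54 and 2.13. Of complex II to V genes with no opposite gene, 57.7% had a ratio above 2. The part of other cell types in the members' values was not tested.

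**Figure D2:**
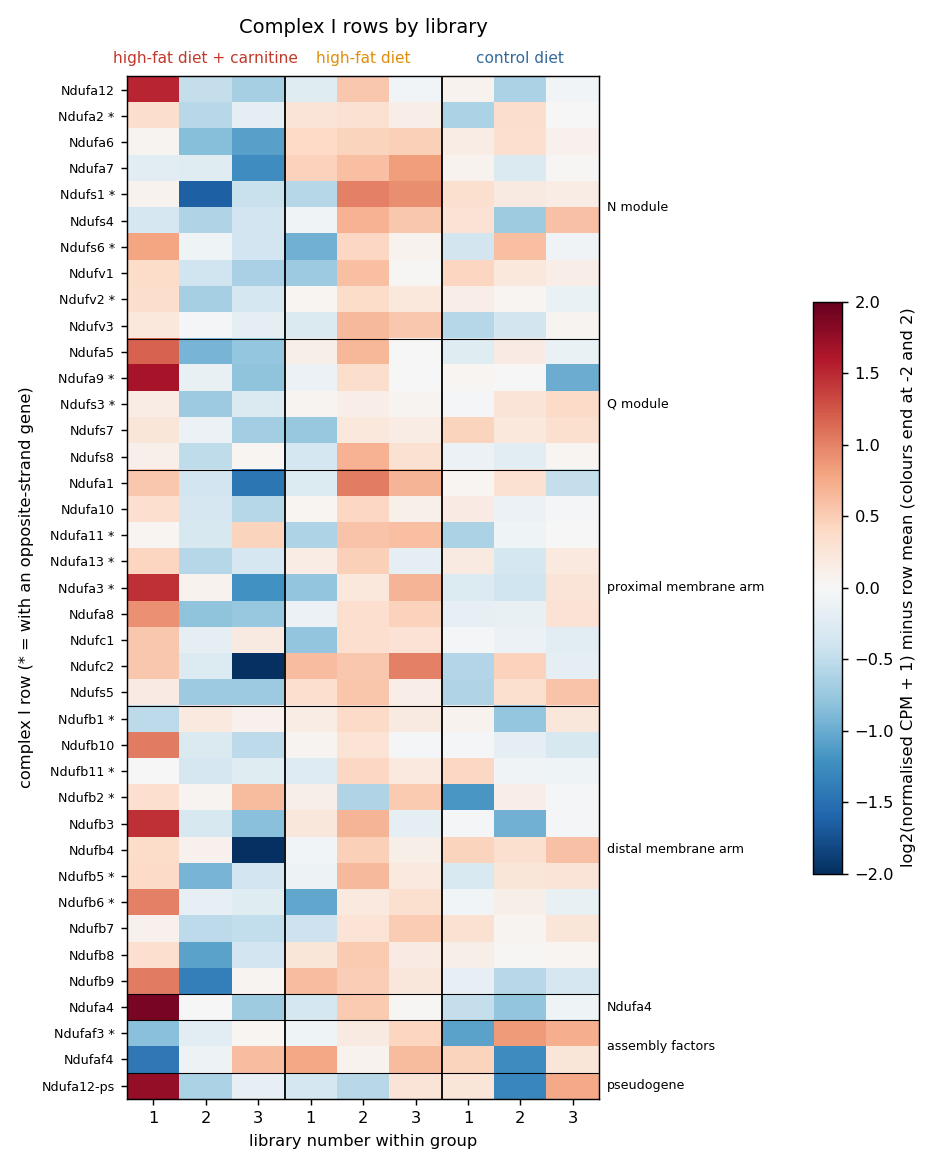
Each row is 1 of 39 tested complex I rows, grouped by role, and each column 1 library (carnitine, high-fat diet, control), and colour gives log2(normalised CPM + 1) minus the mean of the row. Carnitine library 1 is red over most rows while carnitine libraries 2 and 3 are mostly blue, and high-fat diet libraries 2 and 3 are mostly red.

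The comparison of carnitine with high-fat diet asks what L-carnitine changed on top of the fat-rich feed. No member and no opposite feature passed an adjusted p of 0.05 in edgeR's quasi-likelihood test, where 0.0532% of the 7523 tested features did. An unadjusted p under 0.05 was reached by 5 of 40 members and by 12% of all tested features, a like share. DESeq2, which called 0.558% of features, and limma-voom likewise called 0 members. Estimates leaned below 0. The log2 fold change was negative in 11 of 16 members with an opposite-strand gene (median -0.32) and in 18 of 24 with none (median -0.35). Over all tested features the medians were 0.16 with an opposite-strand gene and -0.31 with none.

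The medians of the 2 member classes were alike (-0.32 and -0.35), so their distances from their own classes differed with the medians of all features. The difference between these distances was not tested. The median of members with none was 0.04 below the median of all such features (a difference of -0.04), and 13 of 24 lay below it. The median of members with an opposite-strand gene stood -0.48 from that of their class, and 11 of 16 lay below it. Depending on the scaling, that distance was between -0.52 and -0.46 on the log2 scale, and without carnitine library 1 it was -0.81, with -0.15 for members with no opposite gene. The sign of the fold changes themselves depended on scaling: with TMM factors taken from features with no opposite gene, the member medians were -0.0036 and -0.045, and 8 of 16 and 14 of 24 were negative. That scaling raised the median of all features by 0.33. The other scalings gave the same 11 of 16 and 18 of 24.

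The size of these medians rested on single libraries. Without carnitine library 1 they were -0.57 with and -0.71 without an opposite-strand gene, and 15 of 16 and 24 of 25 tested members were negative. Without carnitine library 2 the median with an opposite-strand gene was -0.15, and without carnitine library 3 the median of those with none was -0.18. Without high-fat diet library 2 they were -0.20 and -0.19, and without high-fat diet library 1 the median of those with none was -0.53. All of these were negative.

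In the N module, 8 of 10 subunits had negative estimates, and 7 of 10 when scaled on features with no opposite gene. Ndufa7, an accessory subunit, had 19.7, 19.3 and 9.13 CPM in carnitine libraries, against 31.9, 35.5 and 41.6 CPM in high-fat diet libraries and 24.1, 18.6 and 23.3 CPM in control libraries. All 3 carnitine libraries lay below all 3 high-fat diet libraries. The log2 fold change was -1.17 (SE 0.35, edgeR adjusted p = 0.226). Ndufa6, an accessory subunit that carries an acyl carrier protein on the peripheral arm, had 39.4, 20.6 and 17.3 CPM in carnitine libraries, against 50.0, 51.8 and 53.1 CPM in high-fat diet libraries and 42.0, 48.0 and 40.4 CPM in control libraries. Its carnitine libraries lay below every library of the other groups. The log2 fold change was -0.99 (SE 0.31, edgeR adjusted p = 0.226) and, without carnitine library 1, -1.44 (edgeR adjusted p = 0.0226). Ndufs4, whose loss in mice and people causes complex I deficiency, had 11.0, 8.99 and 10.6 CPM in carnitine libraries, against 13.5, 23.4 and 21.2 CPM in high-fat diet libraries and 17.5, 8.32 and 21.7 CPM in control libraries. It also did not overlap between carnitine and high-fat diet (log2 fold change -0.93, SE 0.42, edgeR adjusted p = 0.380).

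Ndufs1, which carries several of the iron-sulfur clusters and lies opposite Ino80dos, had 25.8, 7.28 and 17.8 CPM in carnitine libraries, against 16.3, 50.4 and 47.5 CPM in high-fat diet libraries and 31.0, 27.9 and 27.3 CPM in control libraries. High-fat diet library 1 lay within the carnitine range. The log2 fold change was -1.16 (SE 0.42, edgeR adjusted p = 0.279). Ndufv1, which holds the flavin and the NADH site, had 59.5, 34.3 and 28.8 CPM in carnitine libraries, against 27.3, 70.1 and 46.4 CPM in high-fat diet libraries, and the groups overlapped. Ndufv2, its iron-sulfur partner, had 40.6, 19.7 and 24.5 CPM in carnitine libraries, against 32.6, 41.3 and 36.8 CPM in high-fat diet libraries.

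In the Q module, 5 of 6 subunits had negative estimates (median -0.23), but 3 of 6 (median 0.012) when scaled on features with no opposite gene. Without carnitine library 1, which called Ndufa6 as given above, 1.04% of 8087 tested features were called. Ndufs3 had 30.0, 15.8 and 21.6 CPM in carnitine libraries, against 28.0, 29.5 and 27.9 CPM in high-fat diet libraries. Ndufs7 and Ndufs8, which carry the last iron-sulfur clusters before ubiquinone, had fold changes of -0.07 and -0.40 on the log2 scale. All 7 nuclear core subunits had negative estimates (median -0.38), with 5 of 7 negative when scaled on features with no opposite gene.

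In the membrane arm, 7 of 9 proximal and 7 of 11 distal subunits had negative estimates (medians -0.27 and -0.32), but 4 of 9 and 6 of 11 (medians 0.00073 and -0.014) when scaled on features with no opposite gene. Ndufc2, a proximal arm subunit, had 8.34, 4.28 and 0.481 CPM in carnitine libraries, against 8.87, 8.35 and 11.9 CPM in high-fat diet libraries. The 2 groups did not overlap, but the gap, 8.34 against 8.35 CPM, was very narrow. Carnitine library 3 held 1 count, below the 3-count limit. Ndufb8, a distal arm subunit, had 87.6, 32.5 and 52.9 CPM in carnitine libraries, against 81.6, 100.0 and 77.6 CPM in high-fat diet libraries. Carnitine library 1 lay among the high-fat diet libraries (log2 fold change -0.58, SE 0.29, edgeR adjusted p = 0.432). Ndufb5 had 29.2, 11.1 and 16.8 CPM in carnitine libraries, against 20.6, 35.5 and 25.6 CPM in high-fat diet libraries (log2 fold change -0.51, SE 0.38, edgeR adjusted p = 0.614). In all, the groups failed to overlap downward in 4 of 24 members with no opposite gene (Ndufa6, Ndufa7, Ndufc2 and Ndufs4), where 15.2% of all such features did, and in 0 of 16 members with one, where 6.17% of such features did. Upward, 0 of 24 members with no opposite gene were apart, where 2.87% of such features were, and 0 of 16 with one, where 15.2% of such features were.

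Of the 15 tested features opposite the members, 11 had estimates above 0 (median 0.13), close to the median of 0.16 and the 61.7% above 0 of all features with an opposite-strand gene. Scaled on library totals or on features with an opposite gene, 7 of 15 were above 0 (medians -0.060 and -0.022). All of the 8 highest were above 0 (median 0.34). Their summed level was 5948, 5608 and 6215 CPM in carnitine libraries, against 5016, 4600 and 4390 CPM in high-fat diet libraries and 3964, 5853 and 4220 CPM in control libraries. On this scale carnitine libraries lay above the high-fat diet libraries, and control library 2 lay among them. Scaled on library totals alone, the sums were 6180, 5039 and 5573 CPM in carnitine libraries, against 5243, 5252 and 4629 CPM in high-fat diet libraries, and the groups overlapped. Gm16272 had 1275, 1093 and 1081 CPM in carnitine libraries, against 846, 886 and 767 CPM in high-fat diet libraries and 517, 1009 and 692 CPM in control libraries. Its log2 fold change between carnitine and high-fat diet was 0.47 (SE 0.24, edgeR adjusted p = 0.440). That of 1700018A23Rik was also 0.47 (SE 0.23, edgeR adjusted p = 0.412). On the TMM scale the groups did not overlap upward in 4 of 15 tested opposite features (Gm16272, 1700018A23Rik, Vmac and Smim27), where 15.2% of all features with an opposite-strand gene did. Scaled on library totals alone, the groups overlapped in each of these 4. Scaled on library totals or on features with an opposite gene, 5 of the 8 were above 0.

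**Figure D3:**
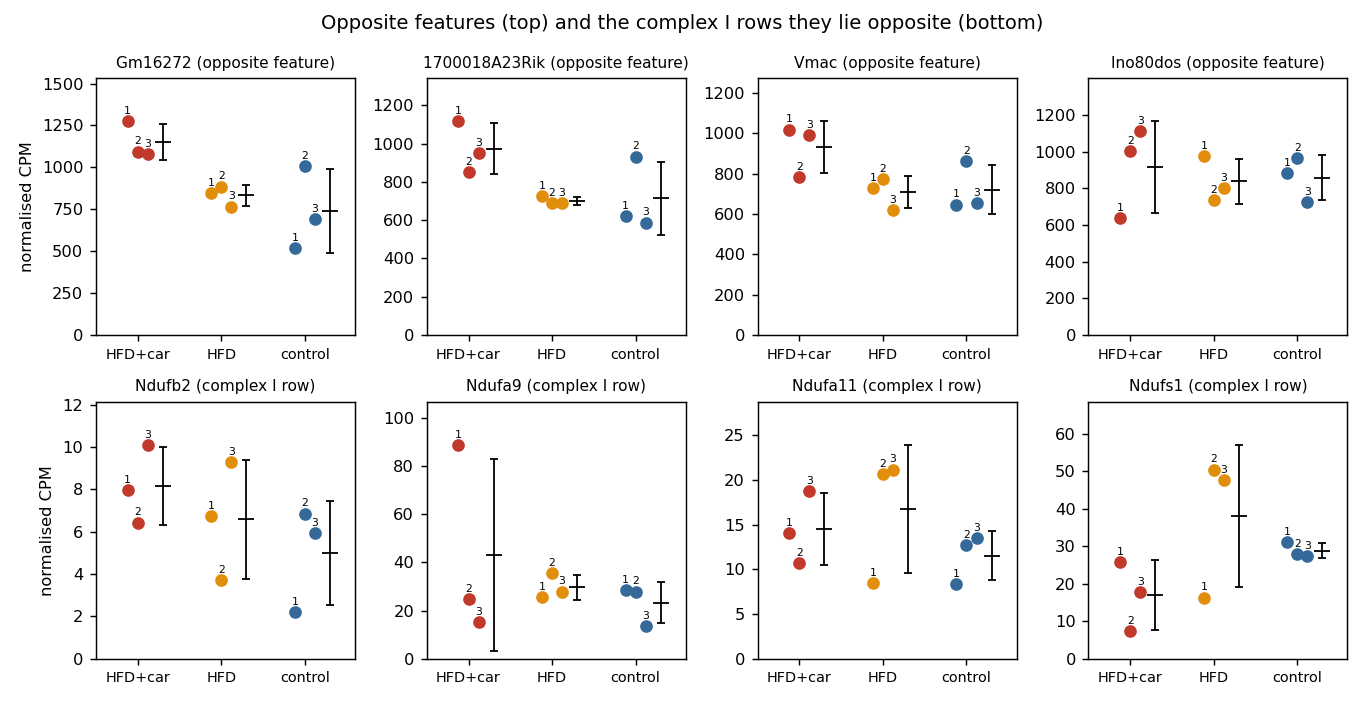
Normalised CPM of 4 opposite features (top) and of the complex I rows they lie opposite (bottom) in carnitine, high-fat diet and control libraries, numbered by library, with the mean and SD of each group as a bar. On this TMM scale Gm16272, 1700018A23Rik and Vmac sit higher in carnitine than in high-fat diet libraries, but the groups overlap on library totals alone. Ndufa9 holds 88.7 CPM in carnitine library 1 and 13.5 to 35.5 CPM in the other 8 libraries.

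Within a library, the members opposite the 8 highest features held 4.55%, 2.18% and 2.38% as many counts as those features in carnitine libraries. The values were 2.91%, 5.37% and 5.14% in high-fat diet libraries and 4.61%, 3.24% and 4.12% in control libraries. The groups overlapped. Ndufs1 held 4.05%, 0.726% and 1.60% as many counts as Ino80dos in carnitine libraries, against 1.67%, 6.84% and 5.93% in high-fat diet libraries and 3.52%, 2.89% and 3.77% in control libraries. The ratio of the 2 rows was thus not fixed between libraries.

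The comparison of high-fat diet with control asks what the fat-rich feed changed. Again no member and no opposite feature passed the adjusted p of 0.05 in edgeR, where 0.0532% of features did, and DESeq2 and limma-voom called 0 members. An unadjusted p under 0.05 was reached by 1 of 40 members and by 6.31% of all tested features. Estimates were above 0 in 12 of 16 members with an opposite-strand gene (median 0.24) and in 19 of 24 with none (median 0.28), against medians of -0.06 and 0.12 over all features of each class. High-fat diet library 1 was the lowest of its group, and for members with an opposite-strand gene its sum of 401 CPM lay below all control libraries. Without it the medians were 0.32 and 0.43, and without high-fat diet library 2, the highest, they were 0.13 and 0.14. The majority above 0 held under every scaling tried, with 11 to 15 of 16 and 19 to 21 of 24. All 9 proximal arm subunits were above 0 under each of these scalings.

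Ndufa7 had the smallest p, at a log2 fold change of 0.72 (SE 0.35, edgeR adjusted p = 0.782), and each of its high-fat diet libraries exceeded each control library. Ndufc2 had 8.87, 8.35 and 11.9 CPM in high-fat diet libraries, against 3.29, 7.83 and 4.60 CPM in control libraries (log2 fold change 0.90, SE 0.63). Ndufb9, a distal arm subunit, had 23.4, 21.4 and 17.5 CPM in high-fat diet libraries, against 13.1, 9.79 and 11.5 CPM in control libraries (log2 fold change 0.85, SE 0.46). Neither pair of groups overlapped. Ndufv3, an N module accessory subunit, had 20.2, 39.5 and 36.4 CPM in high-fat diet libraries, against 16.4, 19.1 and 26.0 CPM in control libraries (log2 fold change 0.64, SE 0.35), with overlap. Members without overlap were Ndufa6, Ndufa7, Ndufb8, Ndufb9 and Ndufc2 upward, 5 of 24 where 8.93% of such features were, and Ndufs7 downward, 1 of 24 where 4.52% were.

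Of the 7 core subunits 4 had estimates above 0, and Ndufs7, Ndufv1 (-0.19) and Ndufs3 (-0.13) had log2 fold changes below 0. Ndufs7 had 24.1, 47.8 and 46.1 CPM in high-fat diet libraries, against 56.6, 48.0 and 51.6 CPM in control libraries. The gap between the groups was narrow on this TMM scale, and on library totals alone they overlapped. The log2 fold change was -0.40 (SE 0.31, edgeR adjusted p = 0.914). Among members with an opposite-strand gene none had groups apart, where 6.08% of such features were apart upward and 8.44% downward. Their smallest p belonged to Ndufa11, with 8.51, 20.7 and 21.2 CPM in high-fat diet libraries, against 8.40, 12.7 and 13.5 CPM in control libraries (log2 fold change 0.55, SE 0.43). Ndufs1 and Ndufa2 had log2 fold changes of 0.41 and 0.29. The 8 highest opposite features had a median of -0.03, and how many were above 0 ran between 1 and 7 of 8 with the scaling.

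The comparison of carnitine with control shares its libraries with the other comparisons. In edgeR 0 members and 0 opposite features passed the adjusted p, where 0.425% of features did. An unadjusted p under 0.05 was reached by 2 of 40 members, and 10.4% of all tested features reached it. DESeq2 and limma-voom called 0 members, and without a filter on low counts edgeR called Ndufa4 (log2 fold change 1.24, adjusted p = 0.0320), when 0.310% of features were called. With the filter, Ndufa4 stood at 1.27 (SE 0.57, edgeR adjusted p = 0.474), and its 166 CPM in carnitine library 1 lay apart from the 43.7 and 26.4 CPM of the other carnitine libraries. Member medians were -0.08 with and -0.14 without an opposite-strand gene, against 0.09 and -0.19 over all features. Without carnitine library 1 they were -0.37 and -0.67, with 13 of 16 and 20 of 25 tested members negative.

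Core subunits were again negative in 7 of 7 (median -0.47), with 6 of 7 when scaled on features with no opposite gene. On the TMM scale Ndufs1 had all 3 carnitine libraries, at 7.28 to 25.8 CPM, below the control libraries, at 27.3 to 31.0 CPM. Its log2 fold change was -0.75 (SE 0.42, edgeR adjusted p = 0.564). Scaled on library totals alone, its groups overlapped, with 68 of 2538389 counts in carnitine library 1 and 57 of 2315985 in control library 2. By TMM Ndufs1 was 1 of 16 members with an opposite-strand gene whose groups did not overlap downward, where 5.30% of such features did not. Ndufa6 was 1 of 24 with none, where 9.95% did not, and 0 of 24 were apart upward, where 3.69% were (log2 fold change -0.74, SE 0.32, edgeR adjusted p = 0.390). Ndufs3 was at -0.47 (SE 0.33), and Ndufb7, a distal arm subunit, was at -0.50 (SE 0.31). Ndufa9 stood at 0.90 (SE 0.50) and Ndufb3 at 0.79 (SE 0.50), and without carnitine library 1 they were at -0.19 and -0.29. Among opposite features, Gm16272 (0.64, SE 0.24, edgeR adjusted p = 0.300) was higher in each carnitine library than in each control library, as were 2 of 15 in all, where 8.31% of features with an opposite-strand gene were.

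**Figure D4:**
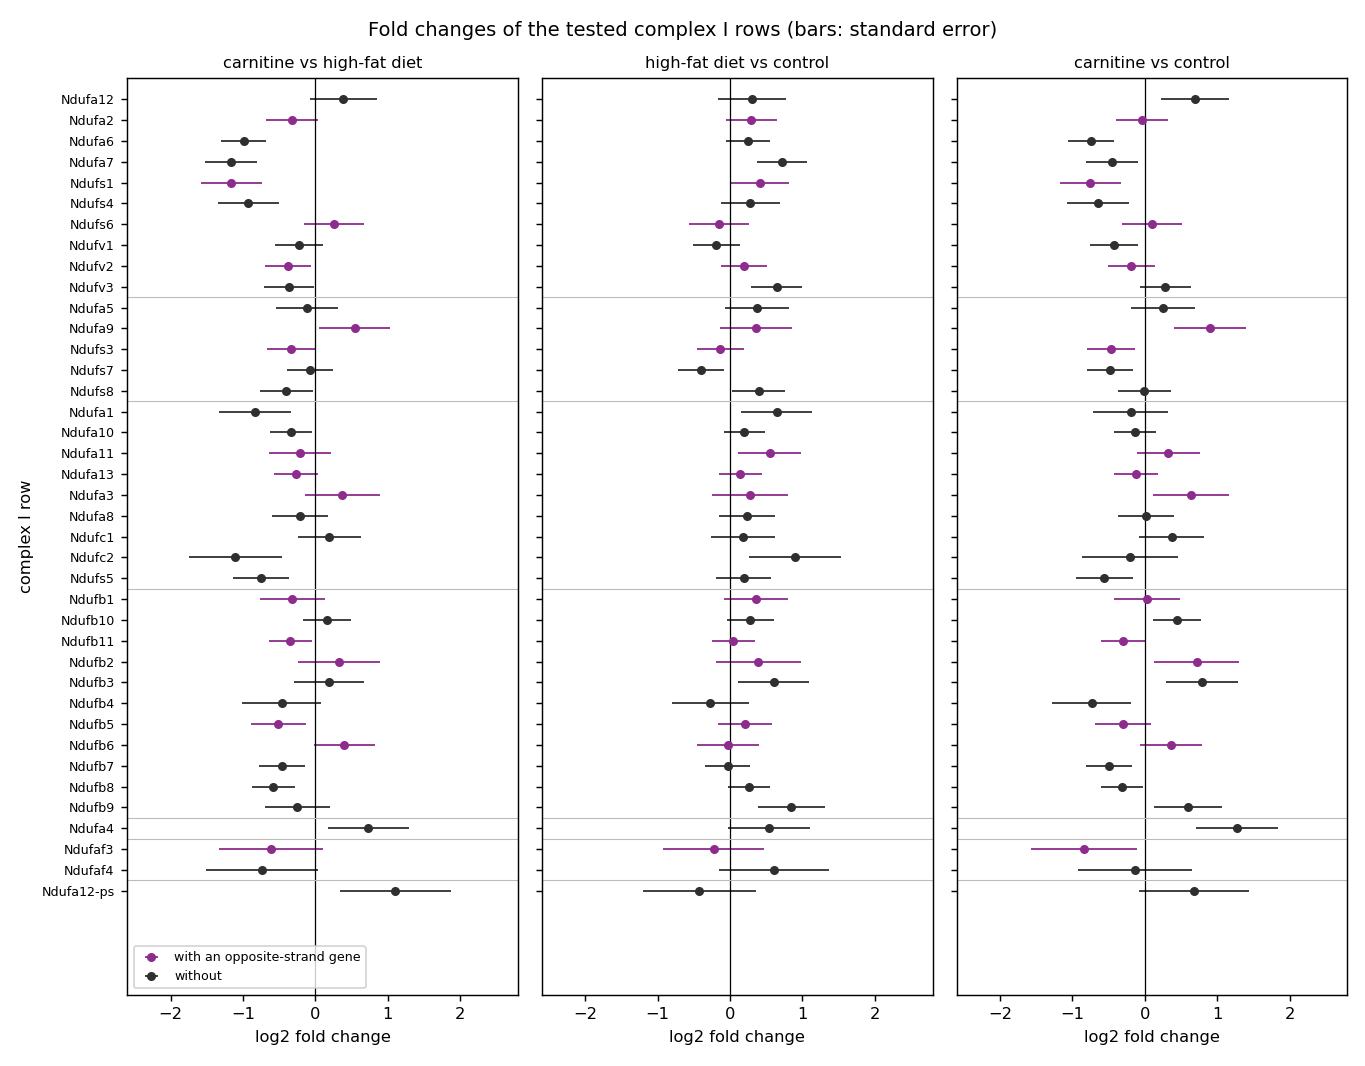
Log2 fold change with its standard error for 39 tested complex I rows, ordered by role as in the plot of rows by library, in the 3 comparisons. Purple marks rows with an opposite-strand gene. Carnitine against high-fat diet lies below 0 in 28 of 39 rows, high-fat diet against control above 0 in 30 of 39, and no row passed the adjusted p of 0.05.

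The assembly factors that could be tested were Ndufaf3 and Ndufaf4, which act together in building the Q module. Ndufaf3 had 1.90, 3.43 and 4.33 CPM in carnitine libraries, against 3.90, 4.87 and 5.94 CPM in high-fat diet libraries and 1.46, 8.32 and 7.56 CPM in control libraries. Ndufaf4 had 0.758, 3.43 and 6.25 CPM in carnitine libraries, against 7.09, 3.95 and 6.31 CPM in high-fat diet libraries and 5.48, 0.979 and 4.60 CPM in control libraries. The groups overlapped in both, and these levels lie below or within a few times the limit set by 3 counts. Ndufaf4 held 2 counts in carnitine library 1 and 2 in control library 2, below that limit. Ndufa12-ps, a pseudogene row counted as a row of its own, had 15.5, 2.14 and 3.37 CPM in carnitine libraries, which follows the order of Ndufa12 at 89.1, 21.4 and 18.8 CPM only in that library 1 is the highest. Reads of near-identical copies can be split between such rows, so both are uncertain. Ndufb2, Ndufb8 and Ndufb9 each share exon bases with a same-strand gene model of M21 that has no row here.

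Nuclear subunits of complexes II to V, the later part of the respiratory chain, were set beside these values. Of 56 listed genes 41 have a row, and the 15 that have none under the names used are all ATP synthase subunits. Of the genes tested, 11 of 13 with an opposite-strand gene had negative estimates between carnitine and high-fat diet (median -0.47), and 22 of 26 with none did (median -0.36). Against the medians of their classes these stood at -0.63 and -0.06, where complex I members stood at -0.48 and -0.04. The difference between complex I and complexes II to V was not tested. Scaled on features with no opposite gene, 10 of 13 and 19 of 26 were negative. Estimates below 0 were not limited to respiratory genes. In the main fit fast fibre genes were negative in 6 of 6 with an opposite gene (median -0.57) and 7 of 7 with none (median -0.58). Slow fibre genes were negative in 3 of 5 and 0 of 2.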

How the data were processed

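Total RNA from muscle was sequenced; per the labels' protocols the library kit keeps strand and takes mRNA. The submitters' processing notes list HISAT2 2.2.0 and Bowtie2 2.4.2 beside HTSeq 0.13.5, Trim Galore 0.6.4 and edgeR, and the builds GRCm39, GRCh38 and Rnor_6.0. Which tool did what, and with which strand setting, is not stated there. The authors deposited raw read counts and FPKM for each gene and library in 1 table, with gene spans (GRCm39, the mouse build named), and the deposited counts were used for every test. FPKM, as deposited, served for levels between genes.

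Counts were analysed with edgeR 4.0.16 in R 4.3.3 (TMM factors, filterByExpr, robust quasi-likelihood fit of all 9 libraries in 3 groups, Benjamini-Hochberg adjustment over all 7523 tested features, threshold 0.05). The fit was tested on simulated data with true log2 changes of 2 or 3 in either direction. Of these, 60.5% (at -2) to 96% (at 3) were called, and 0.0589% of unchanged features were. Smaller changes, such as those estimated for the members, were not simulated. DESeq2 1.42.0 and limma 3.58.1 (voom), other scalings and filters, a replicate block, overlap criteria and left-out libraries were alternatives. The deposited FPKM implied 1 gene length across libraries for each of the 16414 genes with counts in several. Shared exons were read from GENCODE M21 (GRCm38), in which 19097 of the 19335 features were found by gene ID. A 95% Wilson interval on the share of counts in a class was at most ± 0.0442 percentage points and, like the 3-count limit, covers counting error only. Normalised CPM sums count tested members only. Same-numbered libraries did not pair (correlations of -0.16 to 0.14).

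Named were any called rows, the 4 members with the smallest p in each class and comparison, the 6 highest in FPKM in each class, the nuclear core subunits and the 8 highest opposite features. Members and lists were chosen with earlier results of these data known. The values of 1 member are not reported here, though it is included in the counts and medians.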

Additional observations from a re-analysis of the deposited data

How the results depend on the processing

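Members were called under 2 of the settings tried, without a count filter (Ndufa4) and without carnitine library 1 (Ndufa6 among them), and no opposite feature was called under any. With 1 library left out, the count of called members between carnitine and high-fat diet ran from 0 to 1 with and from 0 to 1 without an opposite-strand gene. Without a count filter, 1 member without an opposite-strand gene was called between carnitine and control. The replicate block (medians -0.33, -0.38 and 0.13 between carnitine and high-fat diet for members with, members without and opposite features) called 0 members, and it changed no other call. Between carnitine and control the median of members without an opposite-strand gene ran from -0.67 to 0.039 over left-out libraries. Opposite features had medians of 0.47 against high-fat diet and 0.38 against control when TMM used features without an opposite gene, and of 0.40 and 0.37 with a 100-base minimum overlap, where they were 0.13 and 0.11. Library totals and TMM from features with an opposite gene moved the median of all features by -0.19 and -0.15 between carnitine and high-fat diet, and TMM from features with none by 0.33.

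Among rows named for a comparison, signs that turned under settings other than left-out libraries were those of small estimates. Other members turned too. With TMM from features with no opposite gene, fewer were negative between carnitine and high-fat diet than the 11 of 16 and 18 of 24 of the main fit. Without carnitine library 1, the larger estimates of Ndufa9 (0.90) and Ndufb3 (0.79) between carnitine and control turned as well, to -0.19 and -0.29. Between carnitine and high-fat diet, library totals gave -0.083 for Ino80dos, -0.060 for Kbtbd4 and -0.13 for Rbm10, and TMM from features with an opposite gene gave -0.039, -0.022 and -0.086. Between high-fat diet and control, library totals gave 0.13 for Mrpl47, 0.14 for Ino80dos, 0.17 for 1700018A23Rik and 0.16 for Vmac, and TMM from features with an opposite gene gave 0.042, 0.054, 0.075 and 0.068, while limma-voom gave 0.012 for 1700018A23Rik. Smim27 stood at -0.0051 with DESeq2, -0.16 with TMM from features without an opposite gene and -0.0099 with a CPM filter, and Rbm10 at -0.067 with that TMM. Between carnitine and control, Kbtbd4 stood at 0.069 with TMM from features without an opposite gene. The cause was not tested. With 1 library left out, estimates between carnitine and high-fat diet ran from -0.055 to 0.34 for Ino80dos and from -0.13 to 0.24 for Rbm10. Between high-fat diet and control they ran from -0.16 to 0.13 for Mrpl47, -0.17 to 0.086 for Ino80dos, -0.15 to 0.24 for 1700018A23Rik, -0.098 to 0.14 for Vmac, -0.22 to 0.43 for Smim27 and -0.041 to 0.15 for Rbm10. Between carnitine and control they ran from -0.19 to 1.30 for Ndufa9, -0.29 to 1.17 for Ndufb3, -0.056 to 0.31 for Ino80dos, -0.23 to 0.069 for Kbtbd4 and -0.071 to 0.27 for Rbm10.
Of the assembly factors 6 of 8, and of the pseudogene rows 3 of 4, had too few counts to be tested.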

Other observations

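Genes around complex I outside the symbol pattern were also measured. Dmac2, a factor in building the distal membrane arm, averaged 51.1 ± 11.3 CPM in carnitine libraries and 22.2 ± 9.36 CPM in control libraries (SD over 3 libraries each), with log2 fold change 1.21 (SE 0.33, edgeR adjusted p = 0.136). Tmem242, a mitochondrial assembly protein with an opposite-strand gene, averaged 4.01 ± 2.08 CPM in carnitine libraries and 11.4 ± 6.19 CPM in control libraries (log2 fold change -1.52, SE 0.56, edgeR adjusted p = 0.294). In complex III, Uqcr10 averaged 19.6 ± 3.26 CPM in carnitine libraries and 39.1 ± 5.33 CPM in high-fat diet libraries (log2 fold change -0.99, SE 0.31, edgeR adjusted p = 0.226). Uqcrh averaged 25.4 ± 6.50 CPM in carnitine libraries and 50.4 ± 15.9 CPM in high-fat diet libraries (log2 fold change -0.99, SE 0.32, edgeR adjusted p = 0.228). Cox6a2, the muscle form of a complex IV subunit, averaged 62.7 ± 16.3 CPM in carnitine libraries and 115 ± 26.96 CPM in control libraries (log2 fold change -0.88, SE 0.29, edgeR adjusted p = 0.237). Pprc1, a coactivator of mitochondrial biogenesis, averaged 55.8 ± 3.55 CPM in carnitine libraries and 38.9 ± 4.84 CPM in high-fat diet libraries (log2 fold change 0.52, SE 0.27, edgeR adjusted p = 0.457). Between high-fat diet and control, Esrra, a nuclear receptor of the same programme, averaged 43.1 ± 11.0 CPM in high-fat diet libraries and 29.9 ± 6.53 CPM in control libraries (log2 fold change 0.53, SE 0.32, edgeR adjusted p = 0.877). Gabpa averaged 317 ± 9.91 CPM in carnitine libraries and 263 ± 38.6 CPM in high-fat diet libraries, and Aifm1, which takes part in importing respiratory chain proteins, averaged 5.56 ± 3.30 CPM in carnitine libraries and 2.41 ± 1.34 CPM in control libraries. These 9 genes had the smallest p of their lists over the comparisons, and none passed the adjusted p of 0.05.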
